A study of Rattus norvegicus with 47 samples.

Results

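The genes described here are the NF-kB subunits Rela, Nfkb1, Rel, Relb and Nfkb2, the IkB proteins Nfkbia and Nfkbie, the nuclear regulators Nfkbiz and Bcl3, and Tnfaip3. They were chosen by symbol, with earlier results of these data known. Of these 10 genes, 9 were carried by the array annotation, each on 1 probe set, out of 27596 probe sets in all, 21406 of which had a symbol. No probe set carried the symbol Tnfaip3, which was therefore not analysed here. The probe set of Bcl3 also carries the symbols Ceacam16 and Ceacam19, so its signal cannot be assigned to Bcl3 alone.

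The samples were blood cell pellets of 8 male spontaneously hypertensive rats (SHR), an inbred strain that develops high blood pressure, aged 16 weeks. In every rat a silicon-coated thread blocked the middle cerebral artery (MCA) under isoflurane, and it was withdrawn, again under isoflurane, between the 1 and 2 h samples. Blood came from the tail vein before anesthesia (0 h) and 1, 2, 3 and 6 h after occlusion, and from the heart after an isoflurane overdose at 24 h, and heparin is stated for the tail vein samples. Each time point had 8 Affymetrix RatGene 1.0 ST arrays except 6 h with 7, as 1 rat gave no sample then, 47 in all. No group had sham surgery, so occlusion, surgery, anesthesia, repeated sampling and time of day cannot be told apart, and at 24 h neither can the time and the site of collection.

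NF-kB is a family of dimeric transcription factors that switch on inflammatory and survival genes in leukocytes. In resting cells the dimers are held in the cytoplasm by IkB proteins such as IkB-alpha (Nfkbia) and IkB-epsilon (Nfkbie), or as the precursors p105 (Nfkb1) and p100 (Nfkb2), until IkB kinase marks the inhibitor for destruction. NF-kB in turn drives transcription of several of its own inhibitors, of the nuclear IkB proteins IkB-zeta (Nfkbiz) and Bcl-3, and of the ubiquitin-editing enzyme A20 (Tnfaip3), which closes a feedback loop.

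The RefSeq promoter table for rat build GRCr8 gives 250 bases before and 50 bases after a transcript start, and it holds 9 of the 10 genes, all but Relb. The kappa B consensus, the 10-base pattern that NF-kB dimers bind, was searched on both strands of these 300 bases. It occurred in 8 of the 9 promoters (88.9%), all but that of Rela, against 4.18% of all 33469 promoters in the table (1400 promoters). A match describes letters only, binding was not measured, and the lack of a match in Rela says only that the pattern is not in this window. The windows of 30 bases below are shown because they hold the match for each measured gene that has one. They are written 5′ to 3′ on the gene's strand with the matching bases in capitals.
Nfkb1: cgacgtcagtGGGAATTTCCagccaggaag
Rel: gtaggcagcGGGAAATCCCCccccgttccg
Nfkb2: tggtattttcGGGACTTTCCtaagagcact
Nfkbia: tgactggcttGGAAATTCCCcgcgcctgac
Nfkbie: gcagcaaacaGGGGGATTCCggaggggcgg
Nfkbiz: tttttggcctGGGAATTTCCagcgtgtgga
Bcl3: tcggcggcagGGGAAGTCCCgcagcccggc

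The Nfkbiz window is chr11:58251698-58251727 (+), with the match at bases -13 to -4 counted from the transcript start. The Nfkbia window is chr6:78597084-78597113 (-), and its match, on the opposite strand, is at -31 to -22. The Rel window is chr14:101922000-101922029 (-), where 3 matches overlap over 11 bases, at -82 to -72. In Bcl3, chr1:88613574-88613603 (-), the match is on the opposite strand, at -38 to -29. In Nfkb2, chr1:255108344-255108373 (+), it is at -20 to -11, and in Nfkbie, chr9:22948017-22948046 (-), at -164 to -155. The match of Nfkb1, chr2:226805440-226805469 (-), is not upstream but at bases 4 to 13 after the start. The starts are those the table uses; for Nfkb2, Nfkb1 and Rel it lies inside the outermost annotated start by more than the bases shown upstream, so other starts of these genes lie outside the window. The Tnfaip3 promoter held 3 separate matches.

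**Figure D1:**
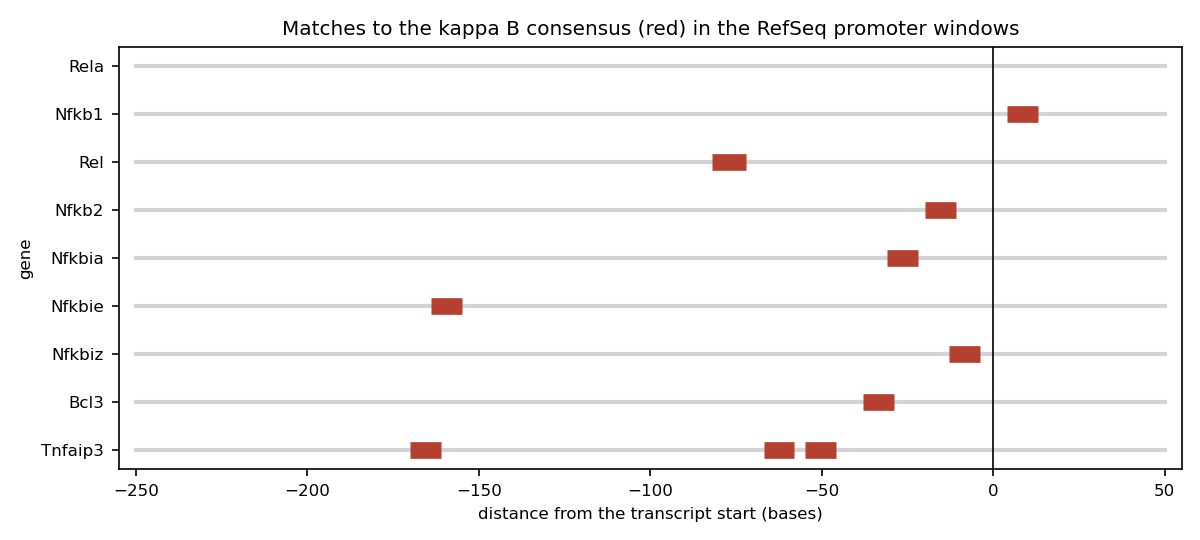
Positions of kappa B consensus matches (red blocks) in the RefSeq promoter windows (grey lines) of 9 NF-kB genes, with the distance from the transcript start in bases on the x axis. The matches of Nfkbiz, Nfkb2, Nfkbia and Bcl3 lie between -38 and 0, Nfkb1's lies after it, and Rela has none.

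Values are the authors' means of log2 RMA signal per time point with their deposited SDs, since the single-array columns are named without rat and time. RMA is a normalised probe set signal, and a probe set's level is comparable only with itself at another time. Over all probe sets the means ran from 2.29 to 13.6, and the median SD was 0.14 to 0.16 log2 units at each time. A change is the later mean minus the earlier mean in log2 units, tested with limma's moderated test computed from the means, SDs and array numbers, and called where the false discovery rate (FDR) over all probe sets was below 0.05. Of such calls, 58.6%, 53.9%, 58.7%, 53.8% and 55.6% were higher than at 0 h at the 5 later times. After each time point was centred on its median most calls were lower at all 5 times, with 3465 of 8654 calls (1 h), 44.2%, 47.2%, 44.6% and 37.3% higher. The same rats gave every time point, and the means do not keep the rat, so the p-values take the arrays as independent samples.

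The NF-kB genes did not move as one group. Nfkbia, Nfkbiz and Bcl3 were higher than at 0 h at 1, 2, 3 and 6 h, and none of the 3 was called at 24 h. Rel and Nfkb1 fell by 1 h and were still lower at 24 h, and Nfkbie was lower at 1, 3, 6 and 24 h. Rela was higher at 2, 3 and 6 h, while Relb was called at no time and Nfkb2 was lower at 1 h. Whole blood is a mixture, so fewer cells of a type and less RNA per cell cannot be told apart in any of these values.

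Among the 9 genes, 3 were called higher and 4 lower at 1 h, where 37.1% of all probe sets were called (21.7% higher, 15.4% lower). At 2 h, 4 were higher and 2 lower, against 40.4% of all probe sets called (21.7% higher, 18.6% lower). The 3 h samples had 4 higher and 3 lower, against 46.5% of all probe sets (27.3% higher, 19.2% lower), and so did the 6 h samples, against 41.8% (22.5% higher, 19.3% lower). At 24 h none was higher by limma's moderated test and 3 were lower, against 31.2% called in all (17.4% higher, 13.9% lower). No gene was higher at 24 h at an unadjusted p below 0.05 or by the ordinary test either. The F-test over the 6 time points, which asks whether a gene varied at all, had an FDR below 0.05 for 7 of the 9 genes against 55.5% of all probe sets. This F-test was computed here from the means and SDs without the rat and is not the study's own, which can give other p-values. A stricter p of 5e-07 is the cut-off that the study set for its own F-test. Here it was passed by 6 of the 9 (Bcl3, Nfkbiz, Rel, Nfkbia, Rela and Nfkb1) against 13.5% of all probe sets. In the paper's own F-test Nfkbia fell short of this cut-off. Fewer genes passed it there than the 3717 probe sets that passed here. The median size of the largest change was 0.46 log2 units over the 9 genes and 0.24 over all probe sets. The median signed change of the 9 genes stayed small, at -0.08, 0.11, 0.10, 0.08 and -0.13 at the 5 later times, since rises and falls stood side by side; over all probe sets it was 0.05, 0.05, 0.07, 0.05 and 0.04.

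**Figure D2:**
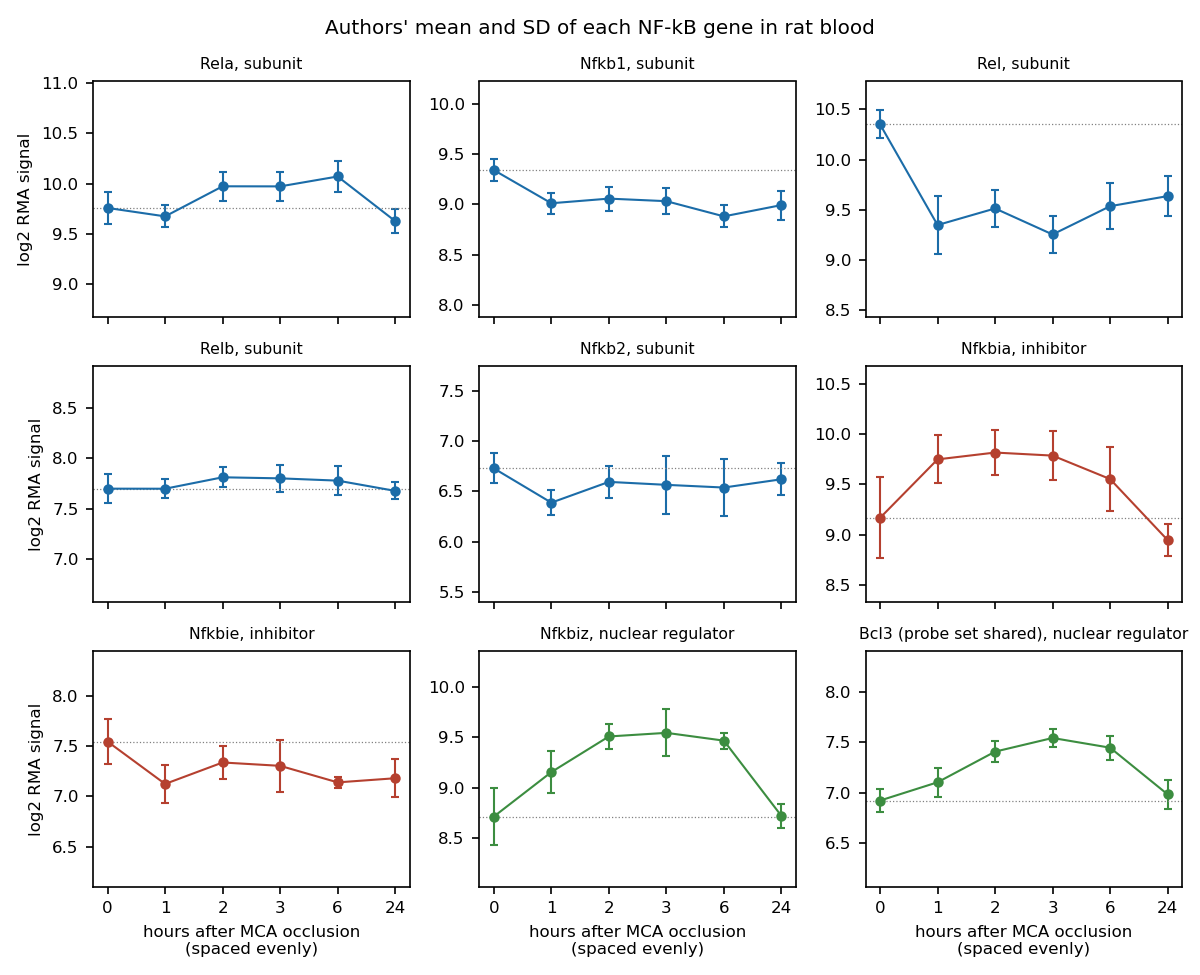
Authors' mean log2 RMA signal (points) with the deposited SD (bars) of 9 NF-kB genes at 0, 1, 2, 3, 6 and 24 h (8 arrays each, 7 at 6 h), times spaced evenly, y axes of equal span but different start, dotted line the 0 h mean. Nfkbiz and Bcl3 arch up and come back at 24 h, whereas Rel drops from 10.35 to 9.35 within 1 h and stays below its dotted line.

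Nfkbiz encodes IkB-zeta, a nuclear protein that works with NF-kB dimers to switch on a later wave of inflammatory genes. Its probe set lies at chr11:50437567-50445961 (+) in rn5. At 0, 1, 2, 3, 6 and 24 h the mean log2 signal was 8.71 ± 0.29, 9.15 ± 0.21, 9.51 ± 0.12, 9.54 ± 0.23, 9.47 ± 0.08 and 8.72 ± 0.12 (SD, n = 8, or 7 at 6 h, as for all means that follow). The bands of mean ± 1 SD at 2, 3 and 6 h lay wholly above the 0 h band, and no step between them was called. The change was 0.44 at 1 h (limma FDR 2.36e-04) and reached 0.83 by 3 h (95% interval 0.64 to 1.02, FDR 4.15e-10), a 1.78-fold higher signal, the largest rise among the 9 genes. It climbed further between 1 and 2 h, by 0.35 (FDR 0.00975), and fell by 0.75 between 6 and 24 h (FDR 3.85e-08). At 24 h, 0.807% of the largest change was left, a difference from 0 h of 0.01 log2 units (95% interval -0.18 to 0.19).

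Bcl3 encodes another nuclear IkB protein, which binds p50 and p52 dimers. Its probe set, chr1:81996519-82076256 (-) in rn5, is the one that also carries the Ceacam symbols. Over the same 6 times the mean log2 signal was 6.92 ± 0.12, 7.10 ± 0.14, 7.41 ± 0.10, 7.54 ± 0.09, 7.45 ± 0.12 and 6.98 ± 0.15. The bands of mean ± 1 SD at 2, 3 and 6 h were clear of the 0 h band, and the 1 h band overlapped it. The rise was 0.18 at 1 h (limma FDR 0.0203), a call lost after centring (0.13, FDR 0.103), and 0.62 at 3 h (95% interval 0.50 to 0.75, FDR 2.22e-11), or 1.54-fold. Set against its highest SD, this was the largest change of the 9 genes, 4.23 times that SD, and its F-test p of 1.14e-14 was also the smallest of the 9, at rank 727 of all probe sets. The step from 1 to 2 h was 0.30 (FDR 7.79e-04) and that from 6 to 24 h was -0.46 (FDR 2.46e-07), which left 9.89% of the rise.

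Nfkbia encodes IkB-alpha, the inhibitor that is destroyed first when the pathway is switched on and is then made anew. Its probe set lies at chr6:85803989-85807222 (-) in rn5. From 0 h, its mean log2 signal of 9.17 ± 0.40 went to 9.75 ± 0.24 (1 h), 9.82 ± 0.22 (2 h), 9.79 ± 0.25 (3 h), 9.55 ± 0.32 (6 h) and 8.94 ± 0.16 (24 h). The samples already differed widely in Nfkbia before anesthesia: its SD at 0 h exceeded that of 98.6% of probe sets, and only at 2 h was the band of mean ± 1 SD clear of the 0 h band. The rise at 1, 2, 3 and 6 h was 0.58 (limma FDR 5.08e-04), 0.65 (95% interval 0.39 to 0.91, FDR 7.44e-05), 0.62 (FDR 1.43e-04) and 0.39 (FDR 0.0193). By 1 h Nfkbia stood at 0.58 of a largest change of 0.65, beside 0.44 of 0.83 for Nfkbiz and 0.18 of 0.62 for Bcl3; the shapes were not tested against each other. Between 6 and 24 h it fell by 0.61 (FDR 6.83e-04), to a mean 0.22 below 0 h that was not called (FDR 0.197). The 6 h rise was not called when the variance came from the 0 and 6 h samples alone (FDR 0.0696).

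Nfkbie, which encodes IkB-epsilon, did not share this course. Its probe set lies at chr9:16717126-16724224 (-) in rn5. The 6 mean log2 signals, in time order, were 7.55 ± 0.22, 7.12 ± 0.19, 7.34 ± 0.17, 7.30 ± 0.26, 7.14 ± 0.05 and 7.18 ± 0.19. All later means were below the 0 h mean, and the bands of mean ± 1 SD at 1 and 6 h were clear of the 0 h band. The change was -0.42 at 1 h (limma FDR 4.85e-04), to 74.7% of the 0 h signal. Later it was -0.21 (2 h, FDR 0.0738, not called), -0.24 (3 h, FDR 0.0329), -0.41 (6 h, FDR 7.48e-04) and -0.36 (24 h, FDR 0.00284). At 24 h, 86.5% of the largest change was left, the highest share among the 9 genes. The 3 h call was lost under quantile normalization (-0.17, FDR 0.158), and a call at 2 h was gained after centring (-0.24, FDR 0.0445).

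**Figure D3:**
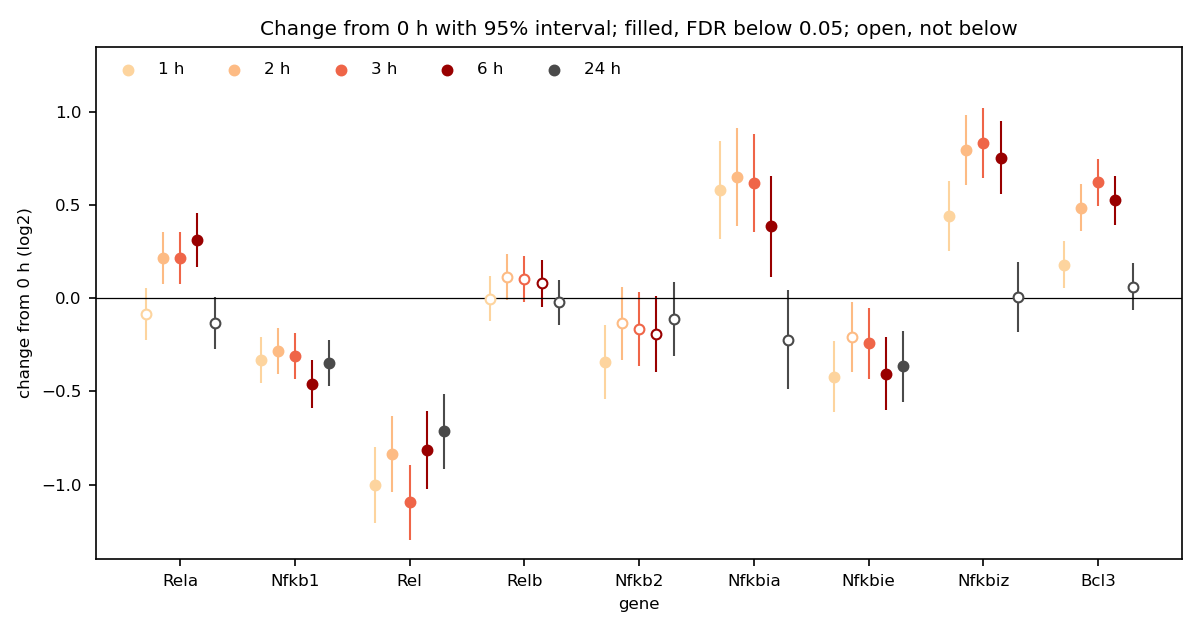
Change from 0 h in log2 units with its 95% interval for 9 NF-kB genes at 5 later times, coloured by time; filled points have an FDR below 0.05. Rel (-0.71 to -1.10) and Nfkb1 (-0.28 to -0.46) are filled below 0 at every time, and Nfkbia, Nfkbiz and Bcl3 are filled above 0 from 1 to 6 h and open at 24 h.

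Rel encodes c-Rel, the subunit most closely tied to lymphocyte activation. Its probe set lies at chr14:108212988-108231039 (-) in rn5. Before anesthesia its mean log2 signal was 10.35 ± 0.14, and afterwards it was 9.35 ± 0.29 (1 h), 9.52 ± 0.18 (2 h), 9.26 ± 0.18 (3 h), 9.54 ± 0.23 (6 h) and 9.64 ± 0.20 (24 h). The 0 h band of mean ± 1 SD stood above every later band. By 1 h the signal fell by 1.00 log2 units (limma FDR 7.68e-11), a change below that of all but 0.344% of probe sets. The later changes were -0.84 (2 h, FDR 2.44e-09), -1.10 (3 h, 95% interval -1.30 to -0.89, FDR 1.44e-12), -0.81 (6 h, FDR 1.10e-08) and -0.71 (24 h, FDR 5.20e-07). At 3 h the signal was 46.8% of that at 0 h, and at 24 h 65.2% of the largest fall was left. When its 6 means were put in order, the only neighbours called apart were 0 h and 24 h, the highest pair.

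Nfkb1 encodes p105 and its product p50, the usual partner of Rela. Its probe set lies at chr2:259330383-259421280 (-) in rn5. Its mean log2 signal of 9.34 ± 0.11 at 0 h was followed by 9.01 ± 0.10 (1 h), 9.06 ± 0.12 (2 h), 9.03 ± 0.13 (3 h), 8.88 ± 0.11 (6 h) and 8.99 ± 0.14 (24 h). Like Rel it was set apart at 0 h, whose band lay above all later bands. The change was -0.33 at 1 h (limma FDR 4.61e-05) and largest at 6 h, -0.46 (95% interval -0.59 to -0.33, FDR 7.22e-08), or 72.7% of the 0 h signal. At 24 h it was -0.35 (FDR 2.85e-05).

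Rela encodes p65, the subunit that carries the main activating domain of the classical dimer. Its probe set lies at chr1:227928092-227938571 (+) in rn5. In time order the mean log2 signal was 9.76 ± 0.16, 9.68 ± 0.11, 9.97 ± 0.14, 9.97 ± 0.14, 10.07 ± 0.16 and 9.63 ± 0.12. The later bands of mean ± 1 SD all overlapped the 0 h band. The change at 1 h was -0.08 (limma FDR 0.350), and the gene then rose, by 0.22 (2 h, FDR 0.0112), 0.21 (3 h, FDR 0.0103) and 0.31 (6 h, FDR 4.29e-04, or 1.24-fold). The step between the 1 h and 2 h samples was 0.30 (FDR 0.00291), and that interval held the withdrawal of the thread and the second anesthesia. From 6 to 24 h it fell by 0.44 (FDR 4.88e-06), to a mean 0.13 below 0 h that was not called (FDR 0.147).

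Relb and Nfkb2 encode the subunits of the alternative pathway, in which p100 is cut to p52 and pairs with RelB. The probe set of Relb lies at chr1:81795852-81810769 (-) in rn5, and its mean log2 signal was 7.70 ± 0.15, 7.70 ± 0.09, 7.81 ± 0.10, 7.80 ± 0.13, 7.78 ± 0.14 and 7.68 ± 0.08 at 0, 1, 2, 3, 6 and 24 h. Its largest change, 0.11 at 2 h (95% interval -0.01 to 0.24, limma FDR 0.135), was smaller than its highest SD. Under quantile normalization of the means Relb was called higher, by 0.20 (2 h, FDR 0.00773), 0.18 (3 h, FDR 0.0156) and 0.18 (6 h, FDR 0.0255). The probe set of Nfkb2 lies at chr1:273483943-273490197 (+) in rn5, and its mean log2 signal was 6.73 ± 0.15, 6.39 ± 0.13, 6.60 ± 0.16, 6.57 ± 0.29, 6.54 ± 0.28 and 6.62 ± 0.16 at the same times. It fell at 1 h (-0.34, limma FDR 0.00569), to 78.9% of the 0 h signal and with bands of mean ± 1 SD apart, and the later changes of -0.11 to -0.19 were not called. The F-test FDR was 0.161 for Relb and 0.0657 for Nfkb2, the 2 genes of the 9 not called by it.

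Among the steps between neighbouring later times, those called lay between 1 and 2 h and between 6 and 24 h. Between 1 and 2 h, 3 of the 9 genes rose, Rela, Nfkbiz and Bcl3, and none fell, where 8.78% of all probe sets were called (4.66% higher, 4.11% lower). Between 2 and 3 h, 0 of the 9 were called by limma's moderated test against 3.53% of all probe sets (1.9% higher, 1.62% lower); at an unadjusted p below 0.05 there were 2 (Rel and Bcl3), and by the ordinary test 0 after adjustment. Between 3 and 6 h, again 0 were called, against 4.78% (2.34% higher, 2.44% lower), with 2 at an unadjusted p below 0.05 (Nfkb1 and Rel) and 0 by the ordinary test. Between 6 and 24 h, 4 fell, Rela, Nfkbia, Nfkbiz and Bcl3, and none rose, against 18.9% of all probe sets (10.2% higher, 8.68% lower). This last step is also the change from tail vein to heart blood. When the 6 means of each gene were put in order, 7 of the 45 pairs of neighbours were called apart, and 2 of these belonged to Nfkbiz, whose 1 h mean stood between a 24 h mean below it (FDR 0.00147) and a 6 h mean above it (FDR 0.0160).

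Blood cell markers moved over the same hours. Of 11 neutrophil markers, 10, 9, 9 and 9 were higher at 1, 2, 3 and 6 h and none was lower, and at 24 h 6 were higher and 1 lower. Their median change was 0.81, 1.31, 1.26, 1.29 and 0.59 log2 units at the 5 later times, and their mean log2 level was 9.20 at 0 h and between 9.59 and 10.38 later. The rises of Nfkbia, Nfkbiz and Bcl3, and that of Rela from 2 h, were called at times when the neutrophil median was 0.81 to 1.31. At 24 h the changes of Nfkbia, Nfkbiz, Bcl3 and Rela were -0.22, 0.01, 0.06 and -0.13, none called.

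Of 10 B cell markers, 9, 10, 9, 9 and 7 were lower at 1, 2, 3, 6 and 24 h and none was higher, with median changes between -0.44 (24 h) and -2.05 (3 h) and a mean log2 level of 9.62 at 0 h and 7.95 to 9.18 later. Of 10 T cell markers, 9, 9, 10, 10 and 10 were lower, 1 being higher at 1 h, with median changes of -0.54, -0.96, -0.99, -1.14 and -0.75 and a mean log2 level of 9.91 at 0 h and 8.78 to 9.49 later. The falls of Rel and Nfkb1 stood beside these falls at every time, and those of Nfkbie at 1, 3, 6 and 24 h. Of 7 NK cell markers, 2 to 6 were lower and at most 1 higher, with medians from -0.16 to -0.82, and of 8 monocyte markers 3 to 5 were lower and up to 3 higher, with medians from -0.12 to -0.50. The 6 measured platelet markers had medians from 0.06 to 0.28 and the 8 erythroid markers from -0.16 to 0.31. On the log2 RMA scale no marker has a level of 0, and the part of these cell types in the NF-kB values was not tested.

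**Figure D4:**
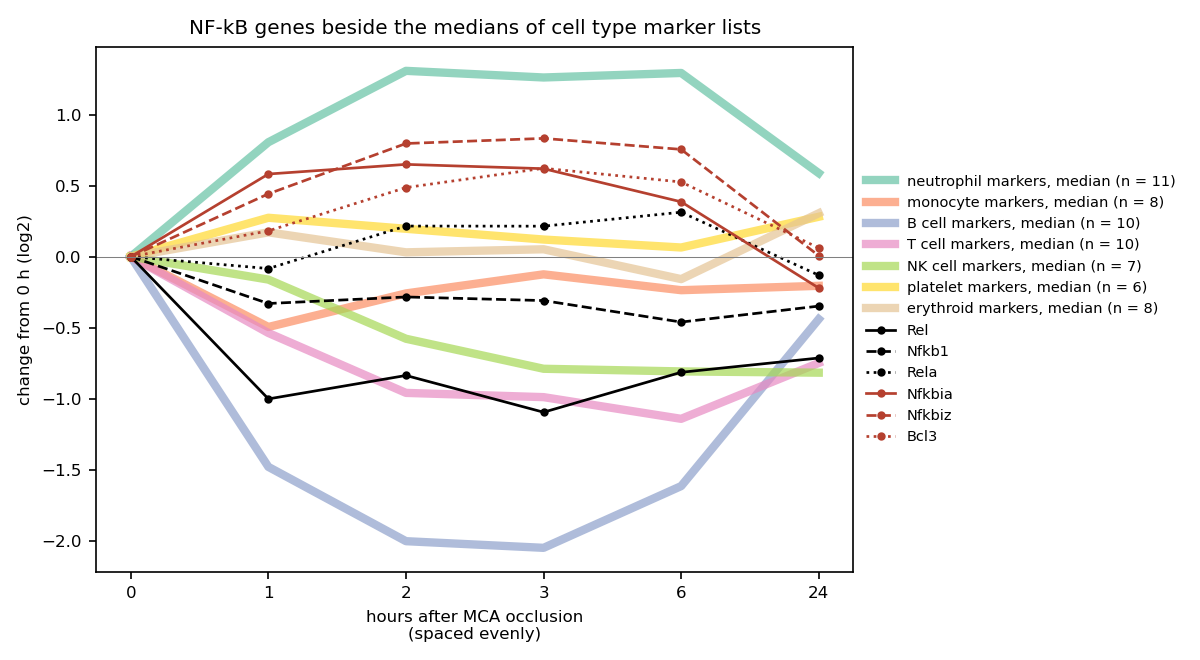
Change from 0 h in log2 units of 6 NF-kB genes (thin lines with points) and the median change of 7 lists of blood cell markers (broad lines), with hours after occlusion spaced evenly. Nfkbiz, Bcl3 and Nfkbia run between 0 and the neutrophil median up to 6 h, and Rel at 1 h lies between the T cell (-0.54) and B cell (-1.48) medians.

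Upstream of NF-kB, receptor adaptors and kinases carry the signal from Toll-like, interleukin-1, TNF and antigen receptors to IkB kinase. Of 29 measured genes of this list, those called higher numbered 3, 8, 10, 8 and 3 at the 5 later times, and those called lower 11, 8, 9, 11 and 9. In either direction 37.1%, 40.4%, 46.5%, 41.8% and 31.2% of all probe sets were called at these times. The median change was -0.12, -0.02, 0.02, 0.00 and -0.04, and 12 of the 29 (41.4%) passed the F-test at 5e-07, beside 13.5% of all probe sets. Malt1, a protease of the antigen receptor pathway, fell by 0.87 within 1 h (limma FDR 1.04e-06) and by 1.29 within 2 h (FDR 2.49e-11), and its change was -0.51 at 24 h. Myd88, the adaptor of Toll-like and interleukin-1 receptors, changed by -0.01 at 1 h, then rose by 0.65, 0.86 and 0.93 at 2, 3 and 6 h (limma FDR 7.78e-15 at 6 h), with 0.19 left at 24 h (FDR 0.0344). Irak4, the kinase that docks on Myd88, changed by 0.15 at 1 h (FDR 0.199) and rose by 0.50, 0.82 and 0.74 at 2, 3 and 6 h.

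The IkB kinase complex itself, named here after its values were seen, was lower or not called. Chuk (IKK-alpha) changed by -0.44, -0.54, -0.47, -0.27 and -0.36 and Ikbkb (IKK-beta) by -0.22, -0.16, -0.21, -0.27 and -0.21 at the 5 later times, and both were called lower at each. Ikbkg (NEMO), the scaffold of the complex, was lower at 1 h (-0.21, limma FDR 0.00982) and was called at no later time, with changes from -0.14 to 0.00. Bcl10, an adaptor of the antigen receptor pathway, was higher at 3 h (0.24) and 6 h (0.41).

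Other inhibitors and ubiquitin editors had as many or nearly as many rises as falls. Of 20 genes, 4, 4, 5, 6 and 5 were higher and 4, 3, 5, 6 and 5 lower at the 5 later times, with median changes of -0.01, 0.09, 0.07, 0.10 and -0.02, and 5 of the 20 (25%) passed the F-test at 5e-07 (all probe sets, 13.5%). The called counts of 8, 7, 10, 12 and 10 in all stand beside the 37.1%, 40.4%, 46.5%, 41.8% and 31.2% of all probe sets. The 7 called at 2 h became 11 under quantile normalization. Otulin, which removes linear ubiquitin chains, fell by 0.84 within 1 h (limma FDR 1.15e-10) and by 0.95 within 2 h (FDR 7.69e-13), with a change of -0.68 at 24 h. Usp18, a protease that also restrains interferon signalling, had changes of 0.06, 0.11 and -0.15 up to 3 h, none called, then fell by 0.87 by 6 h (limma FDR 8.44e-08) and fell by 1.00 by 24 h (FDR 1.23e-08). Nkiras1, a Ras-like protein that binds IkB, was at -0.29 at 1 h (FDR 0.0912) and lower after that, most at 3 h (-0.69, FDR 4.53e-05).

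Among the IkB family members of this list, also named after their values were seen, Nfkbib (IkB-beta) had changes from -0.06 to 0.26 and Nfkbid from -0.04 to 0.12, and neither was called at any time. Zc3h12a, which encodes the RNase regnase-1 and degrades cytokine mRNAs, rose by 0.51, 0.62 and 0.51 at 2, 3 and 6 h and was at -0.15 at 24 h (FDR 0.178).

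The median size of a gene's largest change was 0.71 over the known NF-kB target genes, beside 0.35 over each of the other pathway lists. It was 0.46 over the 9 NF-kB genes and 0.24 over all probe sets. Over the neutrophil, monocyte, B cell, T cell and NK cell markers it was higher, at 1.51, 1.04, 2.07, 1.15 and 0.86. Over the platelet and erythroid markers it was 0.31 and 0.32. These medians were not tested against each other. Of 44 measured targets, 14, 23, 25, 22 and 12 were higher and 6, 8, 11, 7 and 10 lower at the 5 later times. The median change was 0.11, 0.21, 0.24, 0.24 and 0.07, beside 0.05, 0.05, 0.07, 0.05 and 0.04 over all probe sets. Of the 44, 22 (50%) passed the F-test at 5e-07, against 13.5% of all probe sets. The list was chosen with earlier results of these data known, so this share is no test against all probe sets. The share was 72.7%, 87.5%, 90%, 100% and 42.9% of the neutrophil, monocyte, B cell, T cell and NK cell markers. It was 0% of the platelet and 37.5% of the erythroid markers. Of all probe sets, 21.7%, 21.7%, 27.3%, 22.5% and 17.4% were called higher and 15.4%, 18.6%, 19.2%, 19.3% and 13.9% lower at the 5 later times. Mmp9, a gelatinase that neutrophils store and that is also on the neutrophil list, rose by 2.06 within 1 h and 2.75 within 2 h (limma FDR 1.11e-17), with 1.15 left at 24 h. Nos2, the inducible nitric oxide synthase, rose by 1.22, 2.21, 2.61 and 2.60 at 1, 2, 3 and 6 h and was 0.68 at 24 h (FDR 2.53e-05). Slc2a3, a glucose transporter, rose by 1.16 within 1 h and by 2.52 within 6 h, with 1.21 left at 24 h.

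The targets did not all move one way; the genes of this paragraph were named after their values were seen. Tnf, the cytokine that both activates and follows NF-kB, changed by 0.04 at 1 h (limma FDR 0.888) and rose by 1.40, 1.11 and 1.53 at 2, 3 and 6 h. Il1b, which encodes interleukin-1 beta, was higher by 0.48 (1 h), 0.92 (6 h) and 0.72 (24 h). Sod2, the mitochondrial superoxide dismutase, was called from 2 h on, from 0.21 to 0.85 at 6 h and 0.33 at 24 h. Cd83, a surface protein of activated B and dendritic cells, changed by -0.57 (1 h) and -0.99 (3 h), and Irf8, a transcription factor of B cells and monocytes, by -0.81 (1 h) and -1.07 (2 h). Both were lower at all 5 times, and so was Il6, which encodes interleukin-6, at -0.28 to -0.38. The 0 h mean log2 signal of Il6 was 5.36, where the means of all probe sets ran from 2.29 to 13.6. Among genes with a promoter entry, the kappa B consensus occurred in 9 of 31 targets (29%). It occurred in 4 of 21 adaptors and kinases (19%) and 1 of 14 other inhibitors (7.14%). These are shares of genes, whereas the 4.18% given earlier is a share of promoters.

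**Figure D5:**
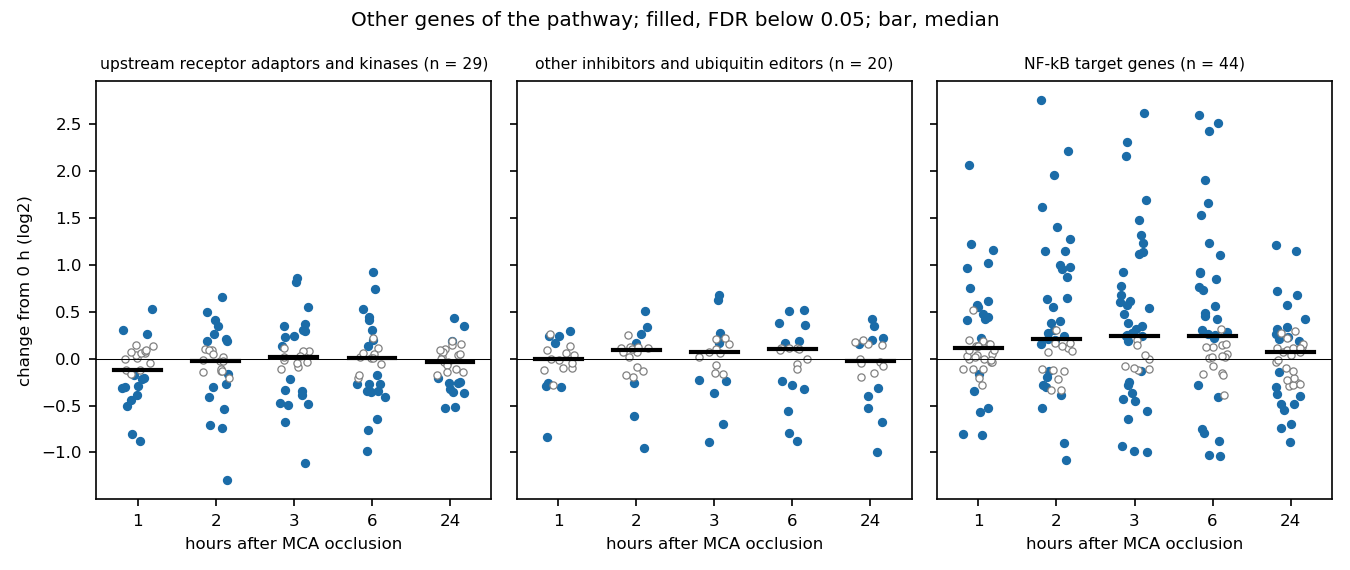
Change from 0 h in log2 units of each gene of 3 pathway lists at 1, 2, 3, 6 and 24 h; filled points have an FDR below 0.05, and the bar is the list's median. The target genes reach 2.75 (Mmp9 at 2 h) with a median of at most 0.24, and the medians of the other lists stay between -0.12 and 0.10.

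The genes whose course was most like that of each of the 4 NF-kB genes with the largest changes were found over 5 times among 12617 probe sets with a symbol and an F-test FDR below 0.05, by the root mean square difference of their changes from 0 h. For Rel they were Erlin1 (0.0837 log2 units) and Bloc1s2 (0.0844), with changes of -0.94 and -0.87 at 1 h and of -0.78 each at 24 h. For Nfkbiz they were Map3k15 (0.0509) and Acsl4 (0.0544), with changes of 0.92 and 0.82 at 3 h, and of 0.04 and 0.02 a day after occlusion. For Bcl3 they were Fam160a2 (0.0496) and Aggf1 (0.0520), at 0.59 and 0.54 at 3 h. For Nfkbia they were Oasl (0.0626) and Retnlg (0.100), at 0.78 and 0.72 at 2 h and, like Nfkbia, with means below 0 h at 24 h, by -0.24 and -0.11.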

How the data were processed

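Blood RNA of 47 samples was amplified and hybridized to Affymetrix arrays. The authors deposited log2 RMA values as a mean and an SD per probe set and time point, with annotation on rn5; the limits of precision are the 7 or 8 arrays per mean. The deposited table also holds 47 single-array columns named by running numbers, not used because no name gives the rat and time, and 19 columns of the authors' own fold changes, p-values and F-tests, not used. Means, SDs and array numbers were tested with the moderated t and F statistics of limma 3.58.1 in R 4.3.3 (squeezeVar, 27596 probe sets, 46.7 total degrees of freedom, two-sided, Benjamini-Hochberg in each comparison). The computation was checked on simulated data. The members and lists were chosen with earlier results of these data known, so their shares beside all probe sets are descriptions, not tests. Of each pathway list the 3 genes with the largest called change were named, and others where stated. The remaining genes of these lists are not named. Traf5, Traf1, Itgb3 and Tubb1 had no probe set. Alternatives were centring, quantile normalization, other variance estimates, a filter on dim probe sets, leaving out the 24 h samples, and an FDR of 0.01.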

Additional observations from a re-analysis of the deposited data

How the results depend on the processing

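Changes of the 9 NF-kB genes were recomputed under the alternatives, 630 in all. Of these, 613 kept their direction and side of the threshold, 9 lost a call, 4 gained one and 4 changed sign. None of the 4 that changed sign was called either way. Under quantile normalization these were Relb at 1 h (0.0590) and 24 h (0.0461) and Rela between 2 and 3 h (0.00248). After centring it was Nfkbiz at 24 h (-0.0346). Only centring and quantile normalization alter the means. Under the other alternatives the direction could not change, and only the call was tested. Of 81 changes each, 78 kept direction and call after centring and 74 under quantile normalization. The median changes of the adaptors and kinases at 2, 3, 6 and 24 h and of the other inhibitors at 1 and 24 h, all within 0.04 of 0, also changed sign under centring or quantile normalization, to between -0.03 and 0.06. Beside the calls given above, an FDR of 0.01 ended those of Bcl3 at 1 h, Rela at 2 and 3 h, Nfkbie at 3 h and Nfkbia at 6 h. The 3 h call of Nfkbie was also lost with the variance of the compared times alone (FDR 0.0827). The F-test FDR of Nfkb2 became 0.0285 after centring and 0.0333 after quantile normalization, and that of Relb 0.0136 after quantile normalization. Of 128 recomputed counts of NF-kB genes and lists, 127 stayed within 1.5 times and 1 moved, that of other inhibitors at 2 h, from 7 to 11 under quantile normalization; the cause was not tested. Over all probe sets an FDR of 0.01 took the counts from 10237 to 6473 (1 h), 8620 to 4913 (24 h), 2422 to 1217 (1 to 2 h), 973 to 453 (2 to 3 h), 1319 to 519 (3 to 6 h) and 5211 to 3412 (6 to 24 h), and the variance of the compared times alone took 1319 to 737 (3 to 6 h). No paired analysis was possible because the deposited means carry no rat number and the single-array columns are named by running numbers only, and single replicates could not be left out for the same reason. The mean over all probe sets of a symbol changed nothing, since each gene had 1 probe set.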
